A study of Mus musculus with 10 samples.

Results

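Cpxm2 and 6 of its relatives, Cpxm1, Aebp1, Cpe, Cpd, Cpm and Cpz, were taken from RNA-seq tables of mouse hearts. The unit is FPKM (fragments per kilobase of transcript, scaled to mapped fragments). These members are 7 of the 46786 genes tabled at 3 months and of the 46977 tabled at 12 months. Each symbol had 1 row per table. The set was chosen by the 12-month values of Cpxm2, which were already known to be far higher in the knockout-labelled hearts, and the relatives were added by family. The 12-month differences are therefore described with no test. The 3-month values of Cpxm2 come from other libraries but may also have been known when the gene was picked, so the 3-month p-values are given as fitted and not as independent evidence.

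The hearts came from mice labelled control or Prdm16 knockout, aged 3 months (3 control and 3 knockout libraries) or 12 months (2 and 2). Prdm16 is a zinc-finger transcriptional regulator. The labels give no strain, no sex, no treatment and no account of how or in which cells the gene was removed, and nothing that the control mice carry. Poly(A) libraries of the 3-month hearts kept strand information, and those of 12 months were prepared at a sequencing institute by another route, so levels were compared within an age. The labels count the libraries as separate samples but tie none to an animal, so p-values reflect the scatter of these libraries, which may be technical.

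Metallocarboxypeptidases of this branch trim basic residues, lysine and arginine, from the C-terminal end of peptides and proteins. Carboxypeptidase E (Cpe) finishes peptide hormones in secretory granules, carboxypeptidase D (Cpd) works in the trans-Golgi, carboxypeptidase M (Cpm) sits on the cell surface where kinins are among its substrates, and carboxypeptidase Z (Cpz) is a matrix enzyme with a frizzled-like domain that binds Wnt proteins. Cpxm1, Cpxm2 and Aebp1 encode secreted relatives that carry a discoidin domain and lack residues needed for catalysis. The secreted form of Aebp1 binds collagen and takes part in fibril assembly.

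Some facts of the libraries touch every value below. Prdm16 did not separate the labels at 3 months (1.44 to 2.23 FPKM in controls, 0.760 to 2.03 in knockout-labelled libraries) and stood at 5.05 and 6.31 against 3.58 and 4.02 FPKM at 12 months, so the groups are called as labelled. At 12 months Xist stood at a mean of 32.1 FPKM in controls and 0.0575 in knockout-labelled libraries, and Ddx3y at 0.0233 and 22.6 FPKM. Genotype and sex therefore cannot be told apart at 12 months. At 3 months Ddx3y averaged 17.4 FPKM in controls and 18.2 in knockout-labelled libraries, with overlapping groups, and Xist averaged under 1 FPKM over the libraries. Knockout replicate 2 of 3 months stood furthest from the controls, with a robust SD of its log2 ratio to any other library of 0.284 to 0.505. Pairs of that age without it ran from 0.145, between the other 2 knockout-labelled libraries, to 0.298. At 12 months knockout replicate 2 stood at 0.416 to 0.443 from the other libraries, against 0.272 and 0.276 between knockout replicate 1 and the controls. All 8 cardiomyocyte markers were found at both ages, and their summed levels were higher in every knockout-labelled library (23769 to 29727 FPKM in controls and 30750 to 31866 in the others at 3 months, 56875 to 56910 and 60249 to 60846 at 12 months), with no marker called. By gene, 5 were higher and 3 lower at 3 months, and 3 were higher and 5 lower at 12 months (median −0.11). The most abundant of them at 12 months, Myl2, was among the higher ones there (means 23989 and 29154.5 FPKM) and weighs most in that sum. These sums are in FPKM as deposited and were not rescaled. Scaling each library to the same total (TPM) moved the median difference of all genes at 12 months from 0.01 to −0.27. Ryr2 was listed at 0 in a library of 3 months.

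Promoters are shown for the 3 members whose levels differed most between the labels at 12 months, Cpxm2 (upwards), Cpxm1 and Cpz (downwards). They are RefSeq sequences of GRCm38.p6 from 250 bases before to 50 after the annotated start, read 5′ to 3′ on the gene's strand. The Cpxm2 promoter is chr7:132154692-132154991, that of Cpxm1 chr2:130397580-130397879 and that of Cpz chr5:35525577-35525876, all on the minus strand. Capitals mark the GC box GGGCGG on either strand.
Cpxm2: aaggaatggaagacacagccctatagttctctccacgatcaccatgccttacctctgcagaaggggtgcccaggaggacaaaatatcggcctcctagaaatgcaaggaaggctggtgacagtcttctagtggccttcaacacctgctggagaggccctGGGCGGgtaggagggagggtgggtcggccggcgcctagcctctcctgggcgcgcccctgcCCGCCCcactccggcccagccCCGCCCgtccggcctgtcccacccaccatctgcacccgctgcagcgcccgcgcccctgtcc
Cpxm1: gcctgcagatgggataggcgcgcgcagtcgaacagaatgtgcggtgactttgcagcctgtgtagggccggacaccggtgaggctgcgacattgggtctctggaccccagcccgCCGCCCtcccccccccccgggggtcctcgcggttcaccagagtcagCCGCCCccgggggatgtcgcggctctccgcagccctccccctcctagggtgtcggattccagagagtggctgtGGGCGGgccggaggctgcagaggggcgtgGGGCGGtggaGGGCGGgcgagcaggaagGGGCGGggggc
Cpz: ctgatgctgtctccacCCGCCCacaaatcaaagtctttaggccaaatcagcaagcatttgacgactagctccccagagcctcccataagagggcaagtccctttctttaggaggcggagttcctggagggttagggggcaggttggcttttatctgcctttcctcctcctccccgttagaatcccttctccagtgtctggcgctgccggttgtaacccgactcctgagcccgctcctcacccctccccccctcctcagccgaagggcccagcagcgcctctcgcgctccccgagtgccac

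RefSeq promoters were matched for 6 of the 7 members, all but Cpe. The Cpxm2 promoter held 66.0% G and C and 17 CpG sites, that of Cpxm1 72.7% and 26, and that of Cpz 60.3% and 13, against medians of 52.7% and 7 over 32851 promoters. All 6 matched promoters held a GC box, which 35.7% of all promoters of this length held. All 6 were also richer in G and C (59.7% to 73.7%) than the median promoter. No rate for promoters of like composition was taken, so the GC boxes are not read as a family trait. The Cpxm2 promoter had 3 GC boxes, at −92, −32 and −11 from the start. It also held 2 E-boxes (CANNTG, found in 72.3% of all promoters) and 1 TEAD core (GGAATG, 14.7%) at −248, which the other 5 windows did not hold. A TATA box (TATAAA, 13.6% of all) and an AP-1 motif (TGANTCA, 7.81%) were not in any of the 6 windows, while CCAAT (37.4%) was in those of Cpxm1 and Cpd. Each motif was searched for on both strands. These matches describe the letters of the windows and say nothing of binding.

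At 3 months Cpxm2 was the member that set the labels apart. The gene lies on chromosome 7 from 132032687 to 132154739 (minus strand, GRCm38), and its control values were 2.77, 2.08 and 2.27 FPKM, with 6.86, 4.96 and 6.01 FPKM in the knockout-labelled hearts. Every knockout-labelled library lay above every control. Mean levels were 2.38 ± 0.355 and 5.94 ± 0.953 FPKM (SD, n = 3 each), a ratio of 2.501. Cpxm2 rose by 1.04 in log2(FPKM + 1), a scale that makes the changes of low genes look smaller (SE 0.14, 95% interval 0.71 to 1.36; limma, Benjamini-Hochberg adjusted p = 0.0158 over 12200 genes). The p-value ranked 43 among those genes. Permuting the 6 labels exactly (two-sided) gave p = 0.1, the smallest value that 3 against 3 libraries can reach.

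Of the 5 members tested at 3 months (mean of at least 1 FPKM), Cpxm2 was called and the other 4 were not, against 0.746% of all genes tested. Groups did not overlap in 1 of the 5, again Cpxm2, against 24.7% of all genes. Of 14 alternatives 5 lost the Cpxm2 call, among them the fits without control replicate 2 (limma adjusted p = 0.104) or control replicate 3 (limma adjusted p = 0.0954), with median-of-ratios rescaling (limma adjusted p = 0.0584) and with no filter (limma adjusted p = 0.128). Over the 14 its adjusted p ran from 0.00967 to 0.128 and its difference from 0.94 to 1.28, and without knockout replicate 2 the difference was 1.14 (limma adjusted p = 0.0156).

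The 12-month controls held 1.27 and 0.864 FPKM of Cpxm2, and the knockout-labelled libraries 18.5 and 31.0 FPKM. The groups were far apart, and the knockout-labelled libraries differed between themselves by more than the controls did. Means were 1.07 ± 0.286 and 24.7 ± 8.86 FPKM (SD, n = 2 each), a ratio of 23.2. The difference was 3.60 (SE 0.29, log2 scale), and with one or another library left out it ran from 3.24 to 3.96. About 123 and 88 fragments lay behind the control values and 1593 and 2228 behind the others, estimated from the longest annotated transcript of 3498 bases and depths of 22.0 to 30.9 M fragments per library. Those depths were read from the steps of the low FPKM values at 12 months. No such steps were found at 3 months, where depth is unknown.

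**Figure D1:**
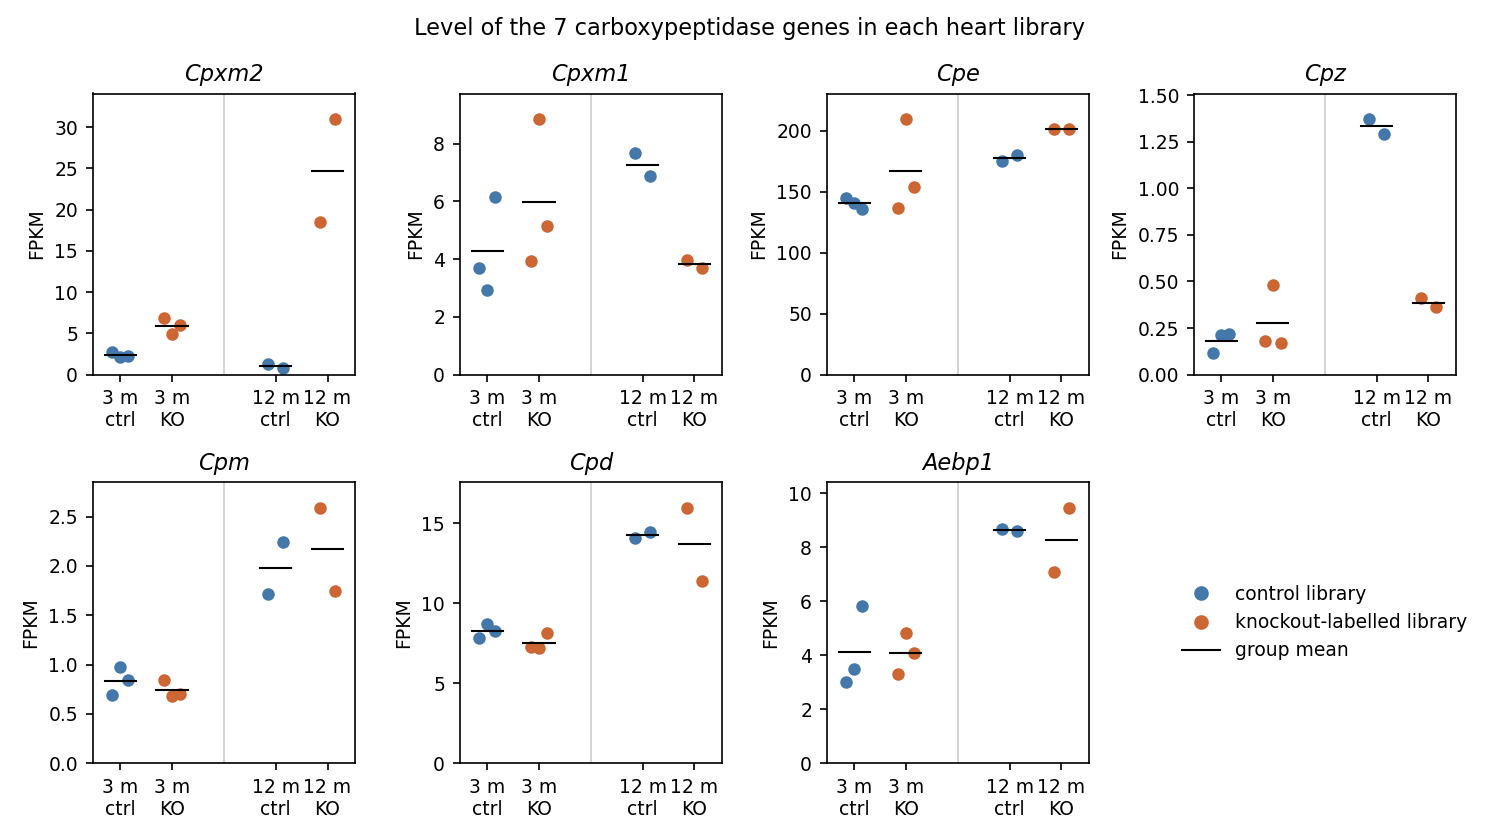
Level of each of the 7 genes in FPKM (vertical axis, from 0) in every library, by age and label; points are libraries and bars are group means. Cpxm2 is higher in every knockout-labelled library at both ages, while Cpxm1 and Cpz are lower in both knockout-labelled libraries of 12 months and overlap at 3 months.

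Of the 7 genes, Cpxm2 was the one whose groups were apart in the same direction at both ages, in the deposited values. Its 12-month part was fixed when those values chose the gene. Of all genes tested, groups were apart in 24.7% at 3 months and 50.3% at 12 months, in either direction. The difference at 12 months was larger than at 3 months, 3.60 against 1.04, and this gap was not tested because the 12-month values chose the gene. Ddx3y set the labels apart at 12 months and not at 3 months, and library preparation differed between the ages. Age cannot be told apart from these in the gap. Control means of Cpxm2 were 2.38 FPKM at 3 months and 1.07 FPKM at 12 months, in tables scaled separately. The controls of the 2 ages also differed in Ddx3y (means 17.4 and 0.0233 FPKM).

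Annotated genes overlap the Cpxm2 locus. The span of Fgfr2, which encodes a fibroblast growth factor receptor, runs over it on the same strand (130162451 to 133123350). Fgfr2 stood at 0.0660 to 0.767 FPKM at 3 months, and at 12 months it stood at 2.05 and 1.06 FPKM in controls and 0.705 and 2.25 in knockout-labelled libraries, with overlapping groups at 12 months. The antisense gene Gm15677 crosses the start of Cpxm2 and was at 0.0858 FPKM or less in every library. The sources used here do not give whether reads were counted by strand.

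Among the other catalytically inactive relatives, Cpxm1 did not follow Cpxm2. Cpxm1, on chromosome 2 from 130390775 to 130397574, stood at 3.70, 2.94 and 6.15 FPKM in the 3-month controls and at 3.92, 8.85 and 5.16 in the knockout-labelled libraries. Both groups ranged widely and overlapped, and the highest value was that of knockout replicate 2. The difference was 0.39 (SE 0.28; limma, Benjamini-Hochberg adjusted p = 0.488). At 12 months the controls stood at 7.68 and 6.87 FPKM and the knockout-labelled libraries at 3.96 and 3.69 FPKM. Here both knockout-labelled libraries were lower, with means of 7.27 ± 0.574 and 3.83 ± 0.188 FPKM (SD, n = 2 each) and a difference of −0.78 (SE 0.12).

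Aebp1, on chromosome 11 from 5861947 to 5872088, showed no separation at either age. Its 3-month values were 3.02, 3.47 and 5.81 FPKM in controls and 3.29, 4.82 and 4.08 FPKM in knockout-labelled hearts. The groups overlapped, with a difference of 0.02 (SE 0.21, 95% interval −0.45 to 0.49; limma, Benjamini-Hochberg adjusted p = 0.975) whose sign turned after TPM or median-of-ratios rescaling (−0.069 and −0.067). At 12 months it stood at 8.67 and 8.61 FPKM against 7.09 and 9.47 FPKM, so the knockout-labelled libraries lay on either side of the controls.

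Within a library, ratios between members do not depend on how libraries were scaled. Cpxm2 stood at 0.917, 0.600 and 0.391 times the level of Aebp1 in the 3-month controls and at 2.08, 1.03 and 1.47 times in the knockout-labelled libraries. In every knockout-labelled library Cpxm2 exceeded Aebp1, and in every control it was below it. The same ratio was 0.146 and 0.1004 in the 12-month controls and 2.60 and 3.27 in the knockout-labelled libraries. Against Cpxm1 the 3-month ratios overlapped (0.749, 0.708 and 0.370 in controls, 1.750, 0.560 and 1.16 in the others), with the low value in knockout replicate 2. At 12 months they were 0.165 and 0.126 against 4.66 and 8.39.

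**Figure D2:**
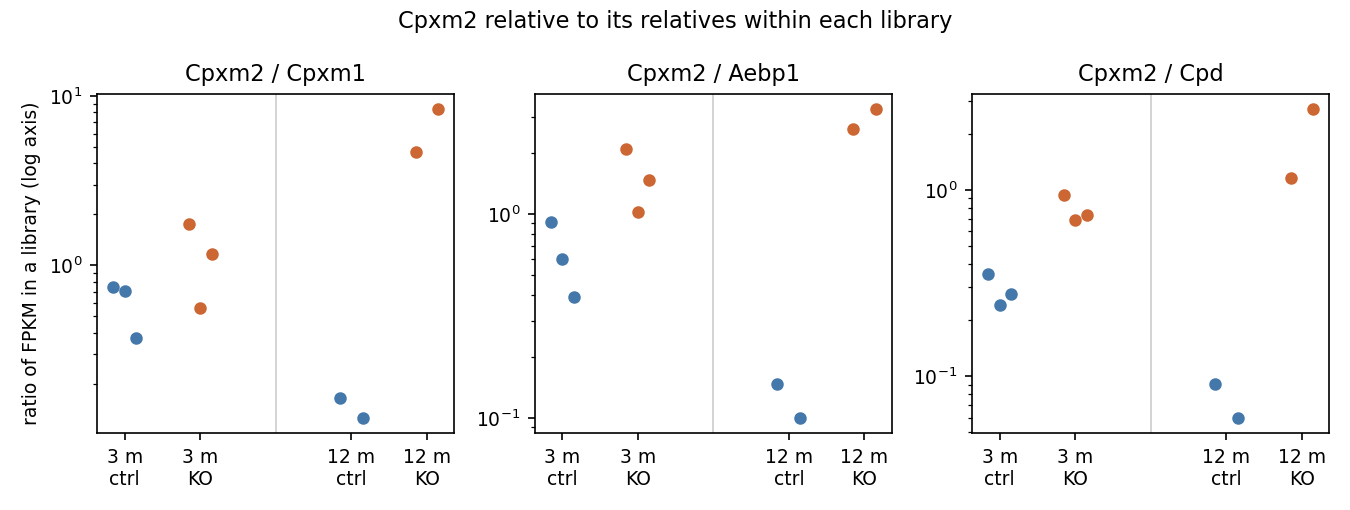
Ratio of Cpxm2 to Cpxm1, Aebp1 and Cpd within each library (vertical axis, log scale), by age and label, 1 point per library. The ratios to Aebp1 and Cpd do not overlap between labels at either age, and the ratio to Cpxm1 overlaps at 3 months.

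Cpe held most of the family's RNA. It made up 85.3% to 88.9% of the summed FPKM of the 7 genes at 3 months and 77.8% to 84.0% at 12 months, while the share of Cpxm2 was 1.31% to 1.70% in 3-month controls, 2.09% to 4.31% in knockout-labelled libraries of that age, 0.403% and 0.604% in 12-month controls and 7.38% and 11.9% in the knockout-labelled ones. Cpe, on chromosome 8 from 64592542 to 64693054, stood at 145, 141 and 136 FPKM in the 3-month controls and at 137, 209.8 and 154 FPKM in the knockout-labelled libraries. The controls lay close together and knockout replicate 2 alone stood well above them. The difference was 0.22 (SE 0.17; limma, Benjamini-Hochberg adjusted p = 0.512). At 12 months the controls stood at 175 and 180.1 FPKM and both knockout-labelled libraries at 202 FPKM, a small gap of 0.18 (SE 0.10) that turned to −0.14 when libraries were rescaled to TPM. That rescaling moved the median of all genes at 12 months from 0.01 to −0.27, so against the median of all genes Cpe was higher under both scalings.

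Cpd, on chromosome 11 from 76778424 to 76847018, was the second most abundant member in both control groups. Its values were 7.85, 8.68 and 8.24 FPKM in 3-month controls and 7.27, 7.19 and 8.17 FPKM in knockout-labelled libraries, which overlapped (difference −0.12, SE 0.11, 95% interval −0.37 to 0.14; limma, Benjamini-Hochberg adjusted p = 0.608). At 12 months the controls stood at 14.1 and 14.4 FPKM and the knockout-labelled libraries at 16.0 and 11.4 FPKM, above and below them.

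Cpm and Cpz were low. Cpm, on chromosome 10 from 117629500 to 117687352, ranged from 0.694 to 0.972 FPKM in 3-month controls, and the knockout-labelled libraries from 0.683 to 0.848. With a mean under 1 FPKM it was not in the fit (exact two-sided permutation p = 0.5, n = 3 each). At 12 months it stood at 1.72 and 2.24 FPKM against 2.59 and 1.75 FPKM, with overlapping groups.

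Cpz, on chromosome 5 from 35502218 to 35525698, stood at 0.118, 0.211 and 0.219 FPKM in 3-month controls and at 0.182, 0.482 and 0.167 FPKM in the knockout-labelled libraries (exact two-sided permutation p = 0.6, n = 3 each). At 12 months the controls stood at 1.37 and 1.29 FPKM and the knockout-labelled libraries at 0.409 and 0.362 FPKM. Both were lower, with control and knockout-labelled means 3.45 times apart, with about 83 and 82 fragments behind the control values and 22 and 16 behind the others. Its mean missed the filter at 12 months as well.

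**Figure D3:**
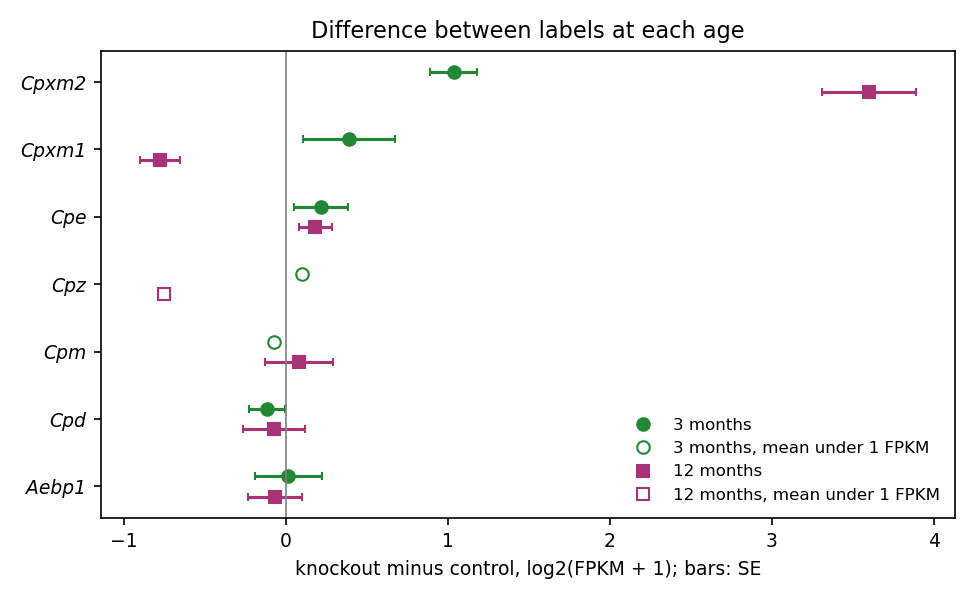
Knockout minus control in log2(FPKM + 1) for the 7 genes (horizontal axis) at 3 months (circles) and 12 months (squares), with SE bars for genes in the fit; open symbols are genes with a mean under 1 FPKM. Cpxm2 stands to the right at both ages (1.04 and 3.60), and Cpxm1 and Cpz stand to the left at 12 months (−0.78 and −0.75).

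Seen over the family at 12 months, where 0.395% of all 13179 genes were called, no call of a member is given since this contrast chose Cpxm2. Groups did not overlap in Cpxm2, Cpxm1 and Cpe among the 6 members that passed the filter, nor in Cpz, which did not pass it. Of all tested genes 50.3% were apart. In order of level the 12-month controls ran Cpe, Cpd, Aebp1, Cpxm1, Cpm, Cpz and Cpxm2. Cpxm2 was the lowest of the 7 there, beside Cpz with 1.29 and 1.37 FPKM, of which the lower lay close to the higher Cpxm2 value of 1.27. In the knockout-labelled libraries Cpxm2 came second, above Cpd in each. At 3 months the controls ran Cpe, Cpd, Cpxm1, Aebp1, Cpxm2, Cpm and Cpz, with Cpxm1 (4.26 ± 1.68) and Aebp1 (4.10 ± 1.498 FPKM, SD, n = 3 each) within each other's spread. The knockout-labelled order was Cpe, Cpd, Cpxm1, Cpxm2, Aebp1, Cpm and Cpz, with Cpxm1 (5.98 ± 2.56) and Cpxm2 (5.94 ± 0.953) indistinguishable.

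The genes whose pattern was most like that of Cpxm2 were found from log2(FPKM + 1) values minus the mean of their age, over 10 libraries. Ankrd1, which encodes an ankyrin repeat protein of muscle induced by load, came first with Pearson r = 0.99 (0.95 over the 6 libraries of 3 months alone). Ankrd1 stood at 696, 583 and 551 FPKM in 3-month controls and 1033, 1115 and 1071 FPKM in knockout-labelled libraries, and at 409.8 and 419 against 1787 and 2313 FPKM at 12 months. The groups of Ankrd1 were apart at both ages, which its choice by likeness to Cpxm2 among 10474 genes made likely. Ptprn (0.97), a dense-core vesicle protein, Ly6c1 (0.97), a surface antigen of endothelial and myeloid cells, Fkbp5 (0.97), a glucocorticoid-responsive co-chaperone, and Fam131c (0.97) followed. Fkbp5 averaged 2.55 and 21.9 FPKM in the 12-month controls and knockout-labelled libraries. These points share their labels and libraries, and the 4 libraries of 12 months lie at both ends, so r gives the order of likeness and no more.

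**Figure D4:**
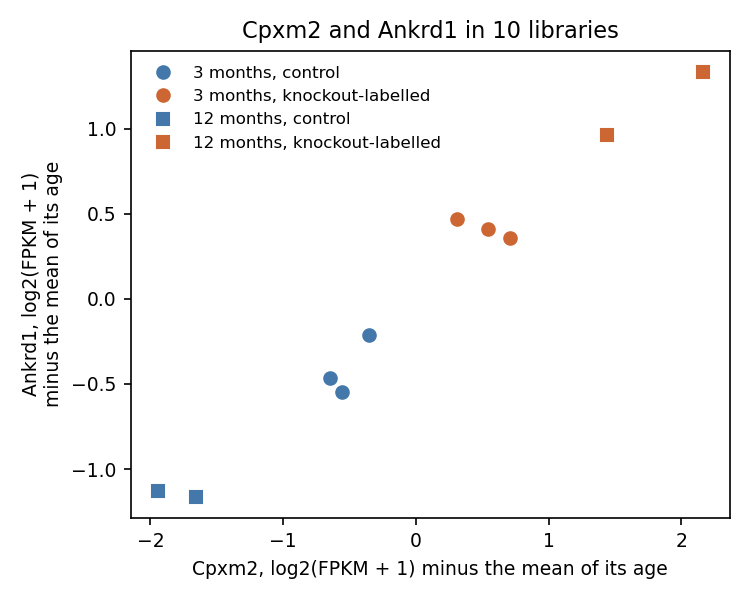
Cpxm2 (horizontal) and Ankrd1 (vertical) in 10 libraries, each as log2(FPKM + 1) minus the mean of its age; circles are 3 months, squares 12 months. All knockout-labelled libraries lie above the mean of their age for both genes and all controls below it, with r = 0.99.

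The relatives had other nearest genes by the same measure. Cpxm1 was most like Ptn and Slc7a7 (0.97 each), Cpe like Ywhaz and Slc2a1 (0.96 each), Cpz like Rap2b and Ralgps2 (0.98 each), Cpm like Hook1 (0.95) and Mgat4a (0.93), and Cpd like Sp1 and Apc (0.98 each). Aebp1 was most like the clone-named gene RP23-346J12.1 and Lox, the collagen cross-linking enzyme (0.94 each). Among pairs of members over the same 10 libraries, r was largest in size for Cpxm2 with Cpz (−0.84), then for Cpxm1 with Cpz (0.79). These r include the 12-month libraries, whose values chose Cpxm2. There Cpz averaged 1.33 FPKM in controls and 0.386 FPKM in knockout-labelled libraries. At 3 months the differences of Cpxm2 (1.04) and Cpz (0.10, groups overlapping) were both above 0. Cpz missed the filter at both ages, so no link between these members is read from r.

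Around the members, 8 lists of 111 genes covered related enzymes, their inhibitors and the systems they act in. None of the 62 list genes tested at 3 months passed (limma, Benjamini-Hochberg; 6 had an unadjusted p under 0.05), and none of 63 at 12 months did (23 under 0.05 unadjusted). Over all genes tested, 18.2% had an unadjusted p under 0.05 at 3 months and 13.6% at 12 months. Differences above 0 were seen in 65.0% of all genes tested at 3 months and 51.5% at 12 months, against which the counts of higher genes below are to be read. In peptide hormone processing, 9 of 19 genes were measured at each age, 5 higher and 4 lower at 3 months (median 0.02, against 0.09 for all genes) and 4 and 5 at 12 months (median −0.11, against 0.01). Pcsk6, a proprotein convertase, averaged 11.1 ± 1.23 and 8.34 ± 0.697 FPKM at 3 months (SD, n = 3 each; limma, Benjamini-Hochberg adjusted p = 0.192), and the lysosomal protease gene Ctsl 80.5 ± 4.73 and 101 ± 9.78 FPKM (SD, n = 3 each; limma, Benjamini-Hochberg adjusted p = 0.231). Corin, the protease that activates atrial natriuretic peptide, stood at 50.2 and 50.8 FPKM against 73.8 and 75.8 at 12 months (limma, Benjamini-Hochberg adjusted p = 0.199). The granule genes Chga, Pcsk1, Pcsk2 and Scg5 were each listed at 0 in at least 1 library of each age and averaged under 1 FPKM.

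Most other enzymes of the M14 family were scarce in these hearts, with 3 of 15 tested at 3 months and 4 at 12. Cpa3, the mast cell carboxypeptidase, averaged 2.99 ± 1.19 FPKM in 12-month controls and 0.956 ± 0.342 in the knockout-labelled libraries (SD, n = 2 each; limma, Benjamini-Hochberg adjusted p = 0.297). Among carboxypeptidases of other families, 6 of 7 tested genes were higher at each age, with medians of 0.15 and 0.18. Ace, angiotensin-converting enzyme, averaged 10.2 ± 0.543 and 23.8 ± 5.16 FPKM at 12 months (SD, n = 2 each; limma, Benjamini-Hochberg adjusted p = 0.181) and had overlapping groups at 3 months (means 7.78 and 7.21 FPKM). The inhibitor gene Lxn averaged 2.60 and 2.93 FPKM at 3 months and 4.25 and 3.77 at 12. In the kinin system 3 of 11 genes were tested at each age (medians −0.03 and −0.37), and the bradykinin receptors Bdkrb1 and Bdkrb2 averaged under 1 FPKM. The neutral endopeptidase gene Mme averaged 3.95 and 2.48 FPKM at 12 months (limma, Benjamini-Hochberg adjusted p = 0.296).

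Genes that share a domain with members gave the following. Of the discoidin-domain proteins, 3 of 7 tested were higher at 3 months and 2 of 7 at 12 months (medians −0.01 and −0.26). Nrp1, a co-receptor for vascular growth factors, averaged 17.0 ± 1.46 and 24.7 ± 0.178 FPKM at 3 months (SD, n = 3 each; limma, Benjamini-Hochberg adjusted p = 0.0859), and the collagen receptor gene Ddr1 6.36 and 8.14 FPKM (limma, Benjamini-Hochberg adjusted p = 0.239). Of the frizzled-domain proteins, the group of Cpz, 8 of 14 tested were higher at 3 months and 4 of 14 at 12 months (medians 0.03 and −0.12). The Wnt5a receptor Ror1 averaged 3.23 ± 0.00392 and 1.22 ± 0.153 FPKM at 12 months (SD, n = 2 each; limma, Benjamini-Hochberg adjusted p = 0.174).

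Collagen fibril genes, with which Aebp1 works, were spread around 0 at 3 months (13 of 19 higher, median 0.03) and mostly lower at 12 months (16 of 19, median −0.76, against 0.01 for all genes), with none called. Col3a1 stood at 402 and 392 FPKM in 12-month controls and at 139.9 and 90.5 in the knockout-labelled libraries (limma, Benjamini-Hochberg adjusted p = 0.130), and Fn1, fibronectin, at means of 20.3 and 11.1 FPKM (limma, Benjamini-Hochberg adjusted p = 0.130). Among the members at 12 months, Cpxm1 and Cpz also stood lower in both knockout-labelled libraries, the groups of Aebp1 overlapped, and Cpxm2 stood higher.

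Among the markers of other cells, called genes were found in the atrial, red blood cell and airway lists and in a pair of others named below. In whole hearts fewer cells of a type and less RNA per cell cannot be told apart. Fibroblast markers, of which none was called, were higher in 8 of 8 genes at 3 months (summed level 616 to 864 FPKM in controls, 729.7 to 1255 in the others) and in 2 of 8 at 12 months (1572 to 1587 and 1564 to 1693 FPKM), with no marker at 0 in a library. Cpxm2 came to 0.263% to 0.424% of this sum in 3-month controls and 0.395% to 0.940% in knockout-labelled libraries, overlapping through knockout replicate 2. At 12 months it came to 0.0800% and 0.0550% against 1.18% and 1.83%. Atrial markers were higher in 6 of 7 genes at 3 months, with sums of 716 to 6198 FPKM in controls and 12323 to 28682 FPKM in the others, and in 3 of 7 at 12 months (6179 to 6342 and 13633 to 15893 FPKM). Nppa, which encodes atrial natriuretic peptide, carried most of these sums and was the atrial marker called, at 3 months (means 1712 and 15967 FPKM; limma, Benjamini-Hochberg adjusted p = 0.0402), and stood at 3273 and 13184 FPKM at 12 months (limma, Benjamini-Hochberg adjusted p = 0.0759). Without Nppa the atrial sums overlapped at 3 months (155 to 2373 and 499 to 8830.4 FPKM) and were lower in the knockout-labelled libraries at 12 months (2945 to 3029 and 788 to 2369.7 FPKM). Red blood cell markers (Hba-a1, Hba-a2, Hbb-bs, Hbb-bt and Alas2) were called higher in 5 of 5 tested at 3 months (818 to 1113 and 2081 to 3111 FPKM) and called lower in 5 of 5 at 12 months (10647 to 10783 and 1956 to 2157 FPKM). Airway markers summed to 13.9 to 39.3 FPKM in 3-month controls and 0.504 to 1.29 in the others, where Scgb1a1 and Bpifa1 were called lower, with Bpifa1, Foxj1, Sftpb and Sftpc at 0 in at least 1 library. The part of atrial, blood and airway tissue in the Cpxm2 difference was not tested.

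Of the remaining marker lists, macrophage genes were higher in 7 of 7 at 3 months (242 to 355 and 325 to 540.5 FPKM) and 4 of 7 at 12 months, and lymphocyte and neutrophil genes in 5 of 5 and 0 of 3. Mast cell genes were higher in 2 of 2 at 3 months and in 0 of 5 at 12 months, epicardial and mesothelial genes in 3 of 4 and 1 of 6, and nerve and glia genes in 3 of 3 and 2 of 4. Endothelial genes were higher in 2 of 6 and 1 of 6, smooth muscle and pericyte genes in 3 of 7 and 1 of 7, adipocyte genes in 1 of 2 and 1 of 5, and valve, tendon and cartilage genes in 3 of 4 and 4 of 4. In these 9 lists the genes that passed were Nkg7 and Gzma, higher at 3 months, and Ucp1 and Plin1, lower at 12 months. Ucp1 averaged 8.40 FPKM in 12-month controls and 0 in the knockout-labelled libraries, and Plin1 5.30 and 0.485 FPKM. Fabp4, of the same adipocyte list, was higher there (586 and 1031 FPKM). The part of these cell types in the Cpxm2 difference was not tested either.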

How the data were processed

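RNA-seq of mouse hearts was deposited by the authors as FPKM, 1 table per age and 1 column per library, with no counts. Per the submitters' processing notes the tools were STAR 2.5.1b, TopHat2 2.1.0, Cufflinks 2.1.1 and FastQC, with mm10 and GRCm38. The sources used here give neither their roles nor any scaling between libraries. The 12-month file is named as holding no outliers, without saying how these were found.

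Repeated identifiers (69, all at 3 months) were summed. Genes with an age's mean of 1 FPKM or more were tested on log2(FPKM + 1) with limma 3.58.1 (R 4.3.3), each age alone, with empirical Bayes moderation, a trend and Benjamini-Hochberg adjustment over all genes tested (12200 and 13179), at a threshold of 0.05. Coordinates come from GENCODE M21 (GRCm38). Summed FPKM was 516272 to 718787 per library at 3 months and 890181 to 1171104 at 12 months. Depth at 12 months was read from genes with 1 annotated transcript, of whose low values 87.0% to 89.3% fell within 0.05 of a whole number of fragments; at 3 months 22.4% to 36.1% did.

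Members, lists and tests were chosen with earlier results of these data known. The rule for named genes took the members, the 2 genes of lowest limma p per pathway list and age (not all are described), called genes, and the 6 genes most like Cpxm2 and 2 most like each relative by Pearson r, skipping predicted (Gm, Rik) and -ps symbols; 1 gene of this rule is not reported here. Called marker genes are named, and those at 0 in a library in the lists described in full. Bdkrb1, Bdkrb2, Lxn and the granule genes are named for their roles. Replicate numbers were not treated as pairs.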

Additional observations from a re-analysis of the deposited data

How the results depend on the processing

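The Cpxm2 difference kept its sign under every alternative run at 3 months. At 3 months, where a mean of at least 5 FPKM left it out, its call was lost with no filter (difference 1.04), after median-of-ratios rescaling (0.96) and with the replicate number as a block (1.04, limma adjusted p = 0.0507), and leaving out 1 library gave differences from 0.94 to 1.14. Same-numbered libraries did not deviate together (r = −0.46 to −0.12 at 3 months, −0.01 at 12), so the replicate block was not taken as a pairing. At 12 months a pseudocount of 0.1 gave 4.39 for Cpxm2. Its sign held there under every alternative, which was fixed in advance, since those values chose the gene and lay far apart. The near-zero Aebp1 difference at 3 months turned to −0.069 with TPM and −0.067 with median-of-ratios, and ran from −0.14 to 0.24 without 1 library. The 91 calls of 3 months (76 higher, 15 lower) became 10 with no filter, 60 with median-of-ratios (43 higher), 29 with the replicate block, 134 with TPM, 124 with robust moderation and 25 to 77 without 1 library (25 without control replicate 2, 39 without control replicate 3, 59 without knockout replicate 2). The 52 calls of 12 months (22 higher, 30 lower) became 17 with no filter, 437 with all 10 libraries in one fit and 47 with TPM (14 higher). Leaving out either 12-month control gave 0 calls in limma (442 and 443 genes at an unadjusted p under 0.05), and leaving out a knockout-labelled library gave 673 or 4463, where the lone sample is assumed to vary like the 2 controls, which were alike (robust SD of the log2 ratio 0.113). Cpz and Cpm missed the filter at 3 months and Cpz at 12, so most alternatives gave them no value. The small groups limit every difference given.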

Other observations

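Activated fibroblast markers were higher in 5 of 6 tested genes at 3 months and 6 of 8 at 12 months, and none passed the gene test. Thbs4 and Postn, both matricellular proteins, and Acta2 are named here after their values were seen. Thbs4 averaged 1.36 ± 0.556 and 3.03 ± 0.176 FPKM at 3 months (SD, n = 3 each; limma, Benjamini-Hochberg adjusted p = 0.0987) and 2.38 ± 0.253 and 10.7 ± 5.70 FPKM at 12 months (SD, n = 2 each; limma, Benjamini-Hochberg adjusted p = 0.246). Its groups did not overlap at either age. Postn averaged 8.89 and 7.30 FPKM at 3 months and 34.7 and 43.3 FPKM at 12 months. At 12 months the list summed to 258 to 260.1 FPKM in controls and 180.7 to 197 FPKM in the knockout-labelled libraries, most of it from Acta2, smooth muscle actin (means 198 and 103 FPKM; limma, Benjamini-Hochberg adjusted p = 0.159). Without Acta2 the 12-month sums ran the other way, 59.3 to 62.1 and 84.6 to 87.3 FPKM. At 3 months Acta2 was higher in the knockout-labelled libraries (means 84.7 and 119 FPKM). The 3-month sums without it overlapped (13.6 to 33.7 and 18.9 to 34.1 FPKM).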
